A study of Mus musculus with 3 samples.

Results

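Retinal astrocytes were picked from single-cell RNA libraries of mouse retina as barcodes with at least 1 read of Pax2, at least 3 reads of Gfap, and fewer than 4 of the Müller glia genes Rlbp1, Kcnj10, Car14, Crym, Gpr37 and Abca8a at 3 or more reads. The rule found 87 cells among 25237 barcodes that had at least 500 detected genes and at most 20% of reads from mitochondrial genes, out of 26696 barcodes in all. The members were thus chosen by measured values of 8 genes, and the levels of those 8 genes are given below only as a description. The 3 libraries, 1 per group, came from retinas at P26: Tspan12 KO mice injected with F4L5.13 (hereafter treated), Tspan12 KO mice, and WT mice. F4L5.13, an antibody-based agonist of the FZD4 and LRP5 receptors, was given by intraperitoneal injection: the doses at P6, P9 and P12 were 10 mg/kg each, and later doses, spaced 3 days apart, were 4 mg/kg. The labels give the strain name Tspan12tm1.2Hjug to all 3 libraries, WT included, and do not say how many animals or retinas went into a library or which exons are deleted. Photoreceptors and dying cells were depleted with anti-CD73 and Annexin V beads before capture with the 10x Chromium 3′ kit.

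Retinal astrocytes enter the retina along the optic nerve and spread over its inner surface, where they lay down the template on which the superficial blood vessels grow. They secrete vascular endothelial growth factor, contact vessels with their endfeet and, after injury or vascular failure, turn reactive and raise Gfap. Müller glia span the retina's whole depth, share many glial genes with astrocytes, and are the class most likely to be confused with them. Tspan12 is a tetraspanin co-receptor that strengthens Norrin signalling through FZD4 and LRP5, and the retina's deep vessels do not form normally without it.

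The members numbered 21 of 8917 kept barcodes in the treated library, 23 of 10239 in the KO library and 43 of 6081 in the WT library. Their shares were 0.236% (exact binomial 95% interval 0.146% to 0.360%) in treated, 0.225% (0.142% to 0.337%) in KO and 0.707% (0.512% to 0.951%) in WT. Set against Müller cells, defined as barcodes with 4 or more of the 6 Müller genes, there were 1.49 astrocytes per 100 Müller cells (0.917 to 2.28) in treated, 1.48 (0.933 to 2.22) in KO and 2.30 (1.66 to 3.11) in WT. The share was lower in the treated and KO libraries by either denominator, but the intervals overlapped when Müller cells were the denominator. Kept barcodes were also shallower in the treated and KO libraries, with median reads of 9708 in treated, 8408 in KO and 14792 in WT. Among barcodes with at least 5000 reads, the share of astrocytes was 0.380% in treated, 0.376% in KO and 0.711% in WT. Whether fewer astrocytes or their capture sets these shares cannot be told apart. Intervals here and below cover counting error only, and with 1 library per group no difference between groups has a replicate check or a p-value.

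The members were deeply read. A treated member had a median of 70988 reads (26168 to 129296), a KO member 58449 (19935 to 98830) and a WT member 38943 (10349 to 108270), so depth moved with the group. The median mitochondrial share was 4.82% in treated members, 4.18% in KO members and 6.08% in WT members. The libraries shared 31 barcodes between treated and KO, 15 between treated and WT and 17 between KO and WT, and no member's barcode occurred in another library.

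The label was checked on genes that the rule did not use. S100b, a calcium-binding protein of astrocytes, had 2467 CPM (reads of the gene per 1000000 reads, summed over the members of a library) in treated, 2886 in KO and 3014 in WT, against 12.4, 33.8 and 43.7 CPM in Müller cells of the same libraries. Pdgfra, the receptor through which retinal neurons drive astrocyte growth, had 1473 CPM in treated, 835 in KO and 1350 in WT members, against at most 11.7 CPM in Müller cells. Gja1, the gap junction protein connexin 43, had 82.2, 77.1 and 129 CPM in treated, KO and WT members and at most 1.38 CPM in Müller cells. At least 3 reads of both S100b and Pdgfra were found in 21 of 21 treated, 21 of 23 KO and 43 of 43 WT members. The label fits those cells by these markers.

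S100b was read in 100% of treated, 91.3% of KO and 100% of WT members, and Pdgfra in the same shares. In bipolar cells, which should lack both genes, S100b was read in 2.35% of treated, 1.95% of KO and 2.02% of WT cells and Pdgfra in at most 0.211%, at median depths of 13810, 12379 and 11882 reads. With each member thinned to 5000 reads, Pdgfra was still read in 95.2% of treated, 91.3% of KO and 97.7% of WT members. Gja1 was read in 76.2% of treated, 78.3% of KO and 81.4% of WT members unthinned, and in 47.6%, 30.4% and 44.2% when thinned, with at most 0.262% of bipolar cells.

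**Figure D1:**
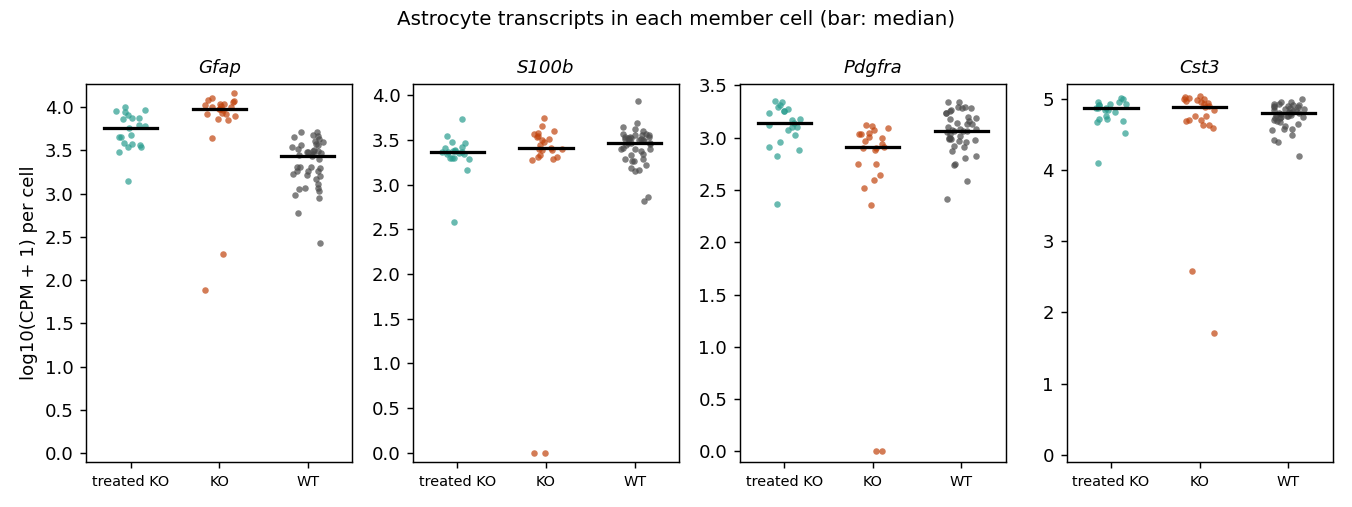
Each point is 1 member cell, and the y axes give log10 of its CPM plus 1 for Gfap, S100b, Pdgfra and Cst3 in treated KO, KO and WT libraries, with the median as a bar. The 2 KO cells at 0 for S100b and Pdgfra are also low for Gfap and Cst3, and the Gfap medians are 5764 CPM in treated, 9502 in KO and 2754 in WT.

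Some other expected markers did not mark these cells. Aqp4, the water channel that marks brain astrocyte endfeet, had 4.08 CPM in treated, 5.40 in KO and 6.48 in WT members, against 464, 671 and 620 CPM in Müller cells. Fgfr3 was at 0 reads in the members of all 3 libraries. Aldh1l1 had 0.582, 0.321 and 0.494 times its Müller level in treated, KO and WT members, and Itgb8 0.243, 0.214 and 0.274 times. Slc1a2 had 0.625, 0.577 and 0.644 times its Müller level, and Cd44 0.588, 0.732 and 0.871 times. Ntsr2 was higher in members than in Müller cells, by 334-fold (13.2 to 2.08e+07), 7.59-fold (2.17 to 20.7) and 26.7-fold (6.39 to 116). The Igsf1 ratio was above 1 in each library, but its WT interval of 0.486 to 7871 includes 1. Müller cells had at most 0.0592 CPM of Igsf1, so its ratios rest on very few reads. Nes and Slc14a1 went different ways between libraries. Sox9 and the glutamate transporter Slc1a3 did not set the glial classes far apart. Sox9 stood at 566, 473 and 587 CPM in treated, KO and WT members and at 575, 525 and 521 CPM in Müller cells. Slc1a3 was 1.65-fold (1.52 to 1.79) higher in treated, 1.35-fold (1.24 to 1.46) in KO and 1.18-fold (1.10 to 1.26) in WT members than in Müller cells. Gjb6 was not analysed here.

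The rule's own genes behaved as follows. Pax2, the transcription factor of the astrocyte lineage, had 115 CPM in treated, 150 in KO and 154 in WT members. Gfap, the intermediate filament of reactive glia, had 5701 CPM in treated, 9691 in KO and 2903 in WT members. Its single-cell values ran from 1414 to 10003 CPM with a median of 5764 in treated, from 77.0 to 14419 with a median of 9502 in KO, and from 268 to 5120 with a median of 2754 in WT. Gfap was highest in the KO library, and the highest WT cell lay below the KO median. Nothing is inferred from this, because Gfap reads chose the cells.

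The thresholds cut close for few members. Just inside, 2 treated, 4 KO and 4 WT members had a single Pax2 read, and all but 1 KO cell of these had at least 3 reads of both S100b and Pdgfra. Just outside, 6 treated, 38 KO and 8 WT barcodes met the other conditions but had no Pax2 read, and 2, 2 and 5 of them carried both S100b and Pdgfra. With Pax2 present but 0 to 2 reads of Gfap there were 4 treated, 24 KO and 7 WT barcodes, none with both genes. Above the Müller limit lay 0 treated, 2 KO and 4 WT barcodes, all with both genes. Of the members, 6 treated, 0 KO and 1 WT cells carried 3 of the 6 Müller genes, so the treated members sat closest to that limit.

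A sizeable part of the members carried signs of other cells. In the KO library, 2 members had no read of S100b or Pdgfra and only 4 and 3 reads of Gfap. The first had 6 amacrine markers at 3 or more reads, and the second 7 bipolar and 3 cone markers. By these markers they are an amacrine-like and a bipolar-like barcode, not astrocytes. The rule counts them as members, so they stay in the KO values unless stated otherwise. Members with at least 3 reads of 3 or more markers of another class numbered 8 of 21 in treated, 5 of 23 in KO and 13 of 43 in WT. Of these, 5, 3 and 9 carried rod markers. The summed rod markers came to 355 CPM in treated, 305 in KO and 369 in WT members, and the bipolar markers to 188, 357 and 465 CPM. The 12 endothelial markers summed to 38.0, 59.4 and 202 CPM, with 1 WT cell at 7952 CPM, and Cx3cr1, Tmem119 and Trem2 of microglia were at 0 in all 3 libraries. No doublet caller was run. The counts of genes without the cells that carry markers of another class are given in the closing section.

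The astrocytes were set beside Müller cells of the same library, as a description, to show what makes up their profile. Of 7796 genes, 249 (3.19%) were higher and 563 (7.22%) lower in members in each of the 3 libraries. Higher and lower here and in the comparisons below mean a CPM ratio of at least 2, at least 30 molecule equivalents in the higher group, and a 95% interval bound nearest 1 that lies beyond 1.5 (the ratio rule). A molecule equivalent is a read divided by the average number of reads that stand for 1 molecule, estimated per library as 3.16 in treated, 2.76 in KO and 2.73 in WT. The 1413 treated, 1558 KO and 1872 WT Müller cells far outnumber the members. Their summed reads therefore reach 30 molecule equivalents at a lower CPM, so more low-level genes can be called lower than higher. The size of the 2 counts cannot be compared. The 8 genes of the rule were not taken out of these counts or of those in the comparisons below, only out of the named genes and gene lists. Since measured values chose the members, the comparison with Müller cells carries no test.

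**Figure D2:**
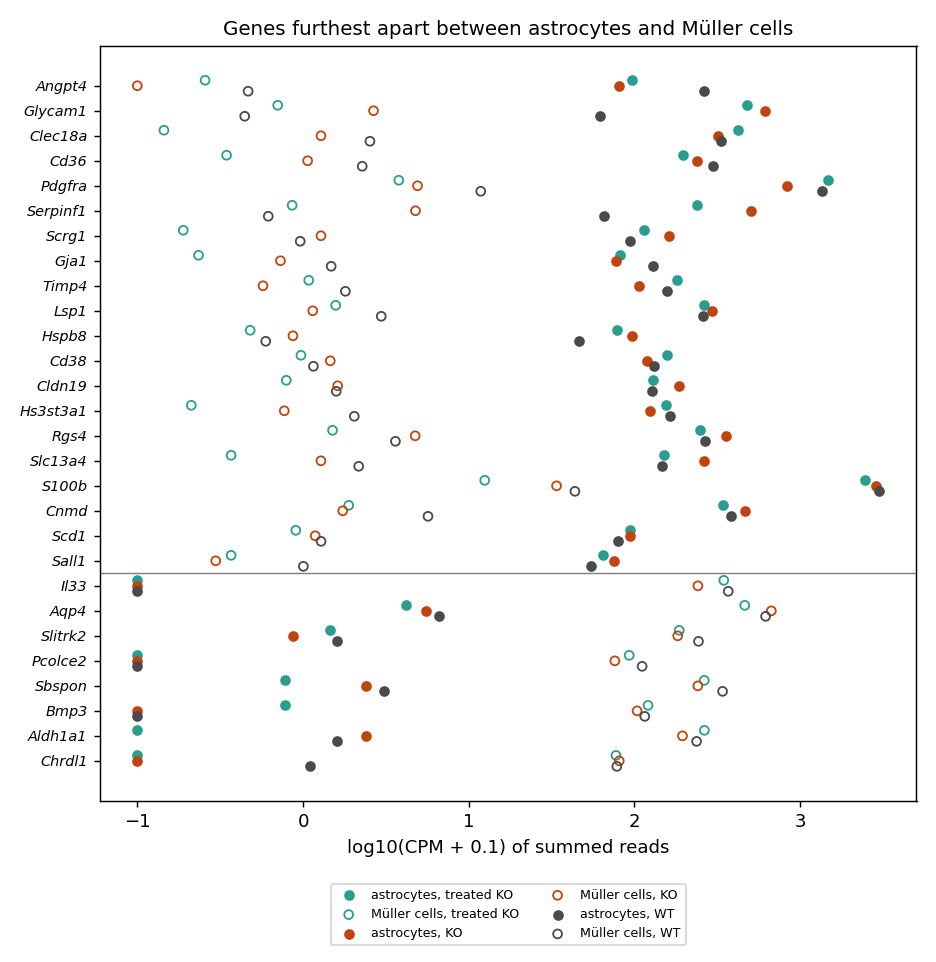
The x axis gives log10 of CPM plus 0.1 for 28 genes, filled points for astrocytes and open points for Müller cells, coloured by library. The 20 genes above the line are separated in every library, for S100b by 199-fold in treated, 85.4-fold in KO and 69.0-fold in WT, and the 8 below it run the other way.

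Among secreted products, Angpt4, a ligand of the endothelial receptor Tie2, had 96.4 CPM in treated, 80.2 in KO and 263 in WT members and at most 0.366 CPM in Müller cells. Timp4, an inhibitor of matrix metalloproteinases, had 181, 106 and 157 CPM in members, against 0.983, 0.473 and 1.70 CPM in Müller cells. Cnmd, chondromodulin, which restrains vessel growth in cartilage, had 342, 468 and 381 CPM, against 1.79, 1.64 and 5.58 CPM. All 3 were at most 5.58 CPM in Müller cells of any library.

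Surface and metabolic genes separated as well. Cd36, a scavenger receptor and fatty acid carrier, had 196 CPM in treated, 238 in KO and 297 in WT members, against 0.246, 0.967 and 2.18 CPM in Müller cells. Cldn19, a tight junction protein, had 130, 186 and 127 CPM, against 0.693, 1.52 and 1.49 CPM. Slc13a4, a sodium-dependent sulfate carrier, had 151, 262 and 146 CPM, against at most 2.07 CPM. Rgs4, a regulator of G protein signalling, had 247, 357 and 267 CPM, against at most 4.66 CPM. The rest of the 20 genes were Glycam1, Clec18a, Pdgfra, Serpinf1, Scrg1, Gja1, Lsp1, Hspb8, Cd38, Hs3st3a1, S100b, Scd1 and Sall1.

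Cst3, which encodes the protease inhibitor cystatin C, was picked out after its values were seen, because of its high level. It had 69263 CPM in treated, 67290 in KO and 59431 in WT members, against 1072, 1230 and 1170 CPM in Müller cells. The lowest member cell had 12687 CPM in treated, 50.2 in KO and 15765 in WT. In KO, the lowest values, 50.2 and 385 CPM, belonged to the 2 cells without S100b. Rgs5, a regulator of G protein signalling that marks pericytes, had 1458 CPM in treated, 1408 in KO and 1019 in WT members and at most 43.4 CPM in Müller cells, while the other mural markers stayed below 100 CPM.

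Müller products were missing in turn. Il33, a nuclear cytokine, and Pcolce2, a collagen-processing enhancer, had no reads in any member, while Müller cells had 346, 242 and 369 CPM of Il33 in treated, KO and WT. No reads in a library allow up to 6.44 CPM in treated, 6.39 in KO and 4.08 in WT members (3 molecule equivalents). Aldh1a1, which makes retinoic acid, had 0, 2.31 and 1.49 CPM in members, against 265, 195 and 237 CPM in Müller cells. Slitrk2, Sbspon, Bmp3 and Chrdl1 followed, none above 2.99 CPM in members. Pcolce2 had 93.0, 76.2 and 111 CPM in treated, KO and WT Müller cells.

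KO astrocytes were compared with WT astrocytes, with 1 library on each side, so the ratios describe these libraries and do not isolate an effect of Tspan12 loss. Tspan12 itself had 67.2 CPM in treated, 62.5 in KO and 107 in WT members, a KO to WT ratio of 0.586 (0.370 to 0.906). Reads of the gene were therefore present in KO astrocytes, and since 3′ reads may lie outside the deleted part, this does not check the genotype. In KO members 69 of 3502 genes (1.97%) were higher and 54 (1.54%) lower than in WT members by the ratio rule, 3.51% in either direction. Genes that chose the members, such as Gfap, were not taken out of these counts. The median log2 ratio over 7764 measured genes was −0.05, and 45.6% of them lay above a ratio of 1. Since KO members were read more deeply than WT members, the counts were also taken with every member thinned to 10000 reads, which left 20 genes higher and 10 lower.

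The genes with the highest KO to WT ratios in astrocytes included inhibitors of proteases and complement genes. Serpina3n, a serine protease inhibitor that reactive astrocytes make, had 1136 CPM in KO and 57.8 CPM in WT members, a ratio of 19.7 (14.4 to 27.5). Single cells gave medians of 878 CPM in KO and 0 in WT, with 91.3% and 32.6% of cells having a read. C4b, complement component C4, had 881 CPM in KO and 138 CPM in WT members, a ratio of 6.38 (5.1 to 8.0), with medians of 830 and 75.7 CPM. The ranges of KO and WT cells overlapped for both genes, from 0 to 3796 CPM in KO and from 0 to 1160 CPM in WT for Serpina3n. The only KO cells at 0 for either gene were the 2 without S100b and Pdgfra. The next lowest KO values were 130 CPM for Serpina3n and 195 CPM for C4b, still within the WT ranges. In bipolar cells Serpina3n was read in 3.16% of KO and 0.0374% of WT cells.

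**Figure D3:**
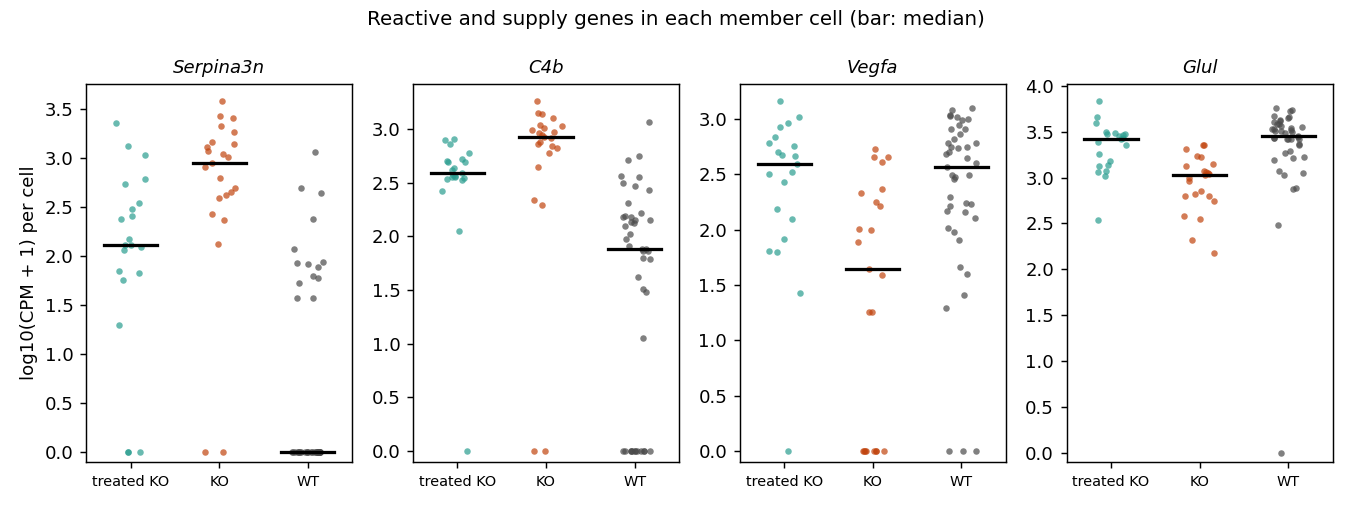
Each point is 1 member cell, the y axes give log10 of its CPM plus 1, and bars are medians in treated KO, KO and WT libraries. The median of Serpina3n is 129 CPM in treated, 878 in KO and 0 in WT, and that of Vegfa is 392 CPM in treated, 42.8 in KO and 366 in WT.

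Serping1, the inhibitor of complement C1, had 155 CPM in KO and 9.46 CPM in WT members, a ratio of 16.4 (7.55 to 42.3), but no longer passed with fewer than 2 Müller genes per member or with members thinned to 10000 reads. Serpinf1, pigment epithelium-derived factor, an inhibitor of vessel growth, had 508 CPM in KO and 65.3 CPM in WT members, a ratio of 7.78 (5.69 to 10.8). Il17rb, a receptor chain for interleukin 17 family cytokines, had 78.7 and 6.97 CPM in KO and WT members, a ratio of 11.3 (4.47 to 36.1). Il17rb had at most 0.797 CPM in Müller cells of any library, and Fmod, the collagen-binding proteoglycan fibromodulin, was 5.57-fold higher in KO than in WT members (4.13 to 7.63) and 0.679 times as high in KO as in WT Müller cells. Il17rb no longer passed without the deepest 10% of the members, with fewer than 2 Müller genes per member, or with members thinned to 10000 reads.

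Mt2, a metallothionein, had 1773 CPM in KO and 398 CPM in WT members, a ratio of 4.45 (3.89 to 5.10). Trf, transferrin, the iron carrier, had 3050 CPM in KO and 738 CPM in WT members, a ratio of 4.13 (3.74 to 4.57). Mt1 and Mt3 had ratios of 3.21 (3.02 to 3.41) and 3.09 (2.71 to 3.54). Mt1, Mt2 and Trf also passed the rule upward in KO against WT Müller cells. The other genes among the 12 highest ratios were Chl1, Kcna5, Tent5a and Tubb2b, and Kcna5, a potassium channel, is also read in 66.9% to 77.1% of bipolar cells.

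**Figure D4:**
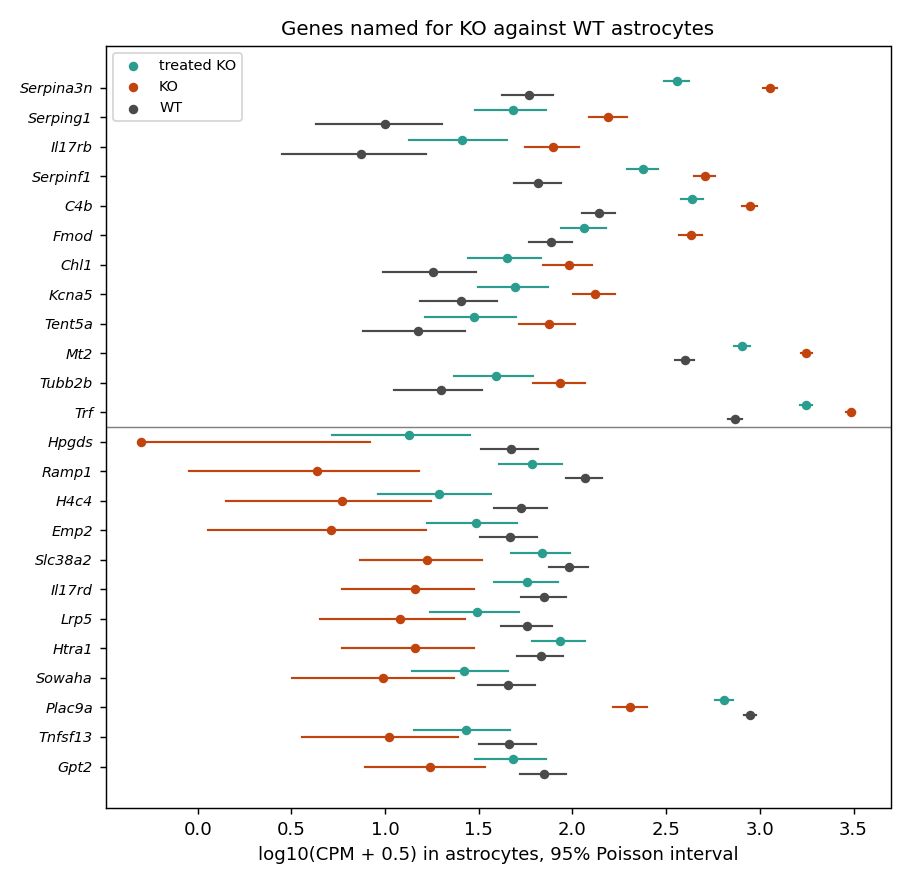
The x axis gives log10 of CPM plus 0.5 in astrocytes with 95% Poisson intervals for the 12 genes with the highest (above the line) and the 12 with the lowest ratio of KO to WT, coloured by library. Serpina3n has 360 CPM in treated, 1136 in KO and 57.8 in WT members, and Plac9a has 643, 203 and 887 CPM.

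The genes with the lowest KO to WT ratios were, apart from Plac9a, at no more than 116 CPM in WT members. Plac9a had 203 CPM in KO and 887 CPM in WT members, a ratio of 0.229 (0.182 to 0.284). Ramp1, a subunit of the receptor for calcitonin gene-related peptide, had 3.86 CPM in KO and 116 CPM in WT members, a ratio of 0.0334 (0.00338 to 0.131). Hpgds, a prostaglandin D synthase, had no read in KO members and 46.3 CPM in WT members, which makes it at least 7.25-fold lower in KO by the floor of 3 molecule equivalents in the library. Lrp5, the co-receptor that Tspan12 and F4L5.13 act with, had 11.6 CPM in KO and 56.8 CPM in WT members, a ratio of 0.204 (0.0665 to 0.499), and its Müller ratio was 0.754. Only Plac9a of these 12 kept its call under every alternative, while Lrp5 lost its call in 4 of them.

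The remaining genes in this group were H4c4, a histone H4 gene, Emp2, Slc38a2, a carrier of neutral amino acids, Il17rd, an inhibitor of fibroblast growth factor signalling, Htra1, a secreted protease, Sowaha, Tnfsf13 and Gpt2, an alanine aminotransferase of mitochondria. Htra1 had 13.9 CPM in KO and 67.2 CPM in WT members, whereas its ratio in Müller cells was 1.35. Slc38a2 had 16.2 CPM in KO and 95.1 CPM in WT members.

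The gene lists were counted over genes with at least 10 molecule equivalents in either library, and a list gene described as higher without passing lies only on that side of a ratio of 1. Of the 9 measured genes of the pan-reactive astrocyte list, 9 were higher in KO than in WT members and 6 passed the rule, with a median log2 ratio of 1.29 against −0.05 over all measured genes, of which 0.889% passed upward and 0.696% downward. These were Serpina3n, Lcn2, S1pr3, Hspb1, Cxcl10 and Cp. Lcn2, lipocalin 2, which binds iron-loaded siderophores, had 120 CPM in KO and 0.498 CPM in WT members, where a single WT cell had a read. A single KO cell held 32.9% of the KO reads, so Lcn2 was outside the rule for named genes and is given as a list gene. Cp, the copper carrier ceruloplasmin, had 2604 CPM in KO and 1084 CPM in WT members, a ratio of 2.40 (2.20 to 2.63). Vim, Cd44 and Osmr had ratios of 1.62, 1.99 and 4.72 and did not pass. With fewer than 2 Müller genes per member the list's median was 0.80.

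In the neuroinflammatory reactive list, 3 of 7 measured genes were higher in KO and only Serping1 passed, with a median of −0.19. C3, complement component 3, had 14.7 CPM in KO members and no read in treated or WT members. Of 12 measured interferon response genes, 11 were higher in KO members, with a median of 0.83, and Ifi27, Ifitm3 and Oasl2 passed. Ifitm3, a membrane protein that blocks virus entry, had 1086 CPM in KO and 362 CPM in WT members, a ratio of 3.0 (2.58 to 3.50). In the STAT3 pathway list 9 of 10 measured genes were higher, with a median of 0.41, and Cebpd passed at 1255 CPM in KO and 581 CPM in WT members.

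**Figure D5:**
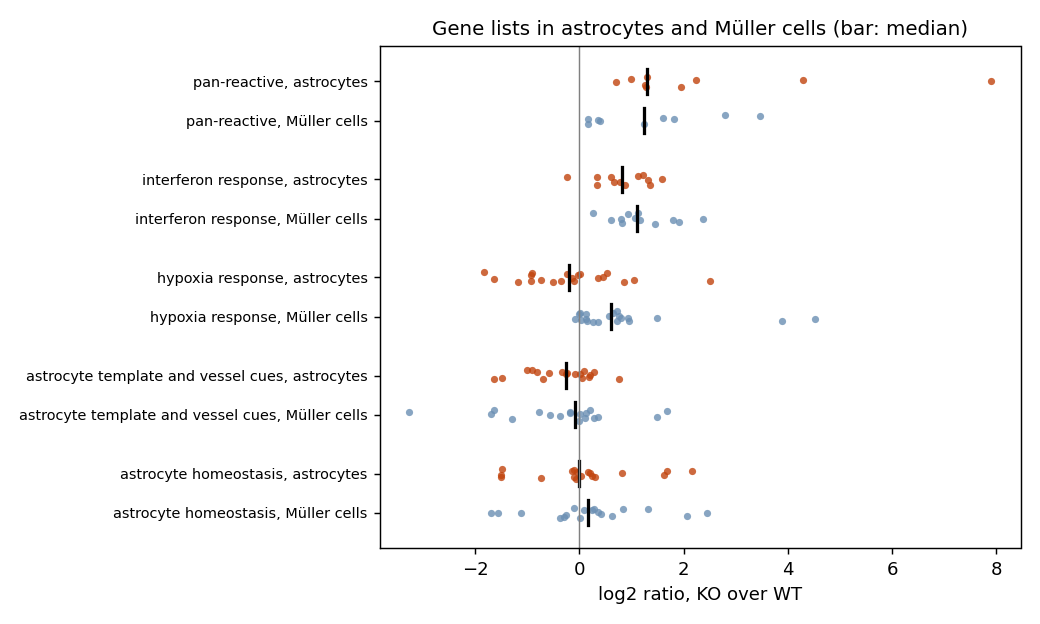
Each point is the log2 ratio of KO over WT for 1 gene of a list, in astrocytes and in Müller cells for the same genes, with medians as bars. The hypoxia response median is −0.20 in astrocytes and 0.61 in Müller cells, while the pan-reactive medians are 1.29 and 1.25.

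In the hypoxia response list the point values of the medians had opposite signs in the glial classes, a difference that was not tested. In astrocytes 7 of 20 measured genes were higher in KO than in WT, against 45.6% of all measured genes. The median log2 ratio of the list was −0.20 in astrocytes. Its interval of −0.919 to 0.352 spans both signs, so the direction in astrocytes was not settled. In astrocytes 1 gene of the list passed the rule in each direction. For the same 20 genes in Müller cells, 18 were higher and the median was 0.61. Vegfa, the vascular growth factor by which astrocytes and other cells call vessels to low oxygen, had 159 CPM in KO and 498 CPM in WT members, a ratio of 0.319 (0.245 to 0.410). In Müller cells Vegfa had 411 CPM in KO and 146 CPM in WT, a ratio of 2.83 (2.70 to 2.96). The single-cell medians of Vegfa were 42.8 CPM in KO and 366 CPM in WT members, and 65.2% and 93.0% of cells had a read. The cell ranges of 0 to 540 CPM in KO and 0 to 1256 CPM in WT overlapped.

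Slc2a1, the glucose carrier, had 185 CPM in KO and 351 CPM in WT members, a ratio of 0.528 (0.409 to 0.676), and 1.19 in Müller cells. Adm, adrenomedullin, a dilator of vessels, had 108 CPM in KO and 206 CPM in WT members, a ratio of 0.525 (0.374 to 0.726), and a ratio of 23.1 in Müller cells. Both Slc2a1 and Adm missed the rule in astrocytes. Ndufa4l2, a respiratory chain subunit that hypoxia induces, was the list gene that passed upward: it had 84.9 CPM in KO and 14.9 CPM in WT members, a ratio of 5.68 (2.86 to 12.3), and a single cell held 42.7% of the KO reads. It no longer passed with fewer than 2 Müller genes per member, without the deepest 10% of members, or thinned to 10000 reads. Müller cells of the same libraries had 1391 and 93.7 CPM of Ndufa4l2.

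Of 9 measured Norrin and Wnt receptor genes, 1 was higher in KO members and only Lrp5 passed, with a median of −0.43. Fzd4, the Norrin receptor, had no read in treated or KO members and 1.99 CPM in WT members, read in 2.33% of WT cells, and in 2.69% to 3.11% of bipolar cells. Of the β-catenin targets only Znrf3, Ccnd1 and Apcdd1 were measured, and Lef1, Rnf43, Sp5 and Lgr5 had no read in any member. Of 18 measured template and vessel cue genes, 7 were higher, with a median of −0.25, and Vegfa and Sparcl1 passed downward. Sparc, Tgfb2, Agrn and Lamb2, secreted or matrix proteins of the inner surface, had ratios of 1.01, 1.13, 1.15 and 1.03.

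Homeostatic genes split. Of 18 measured, 9 were higher in KO members, and Mt1, Mt2 and Mt3 passed upward while Glul, Sparcl1 and Fabp7 passed downward. Glul, glutamine synthetase, had 1124 CPM in KO and 3174 CPM in WT members, a ratio of 0.354 (0.322 to 0.389), and in Müller cells 6247 and 7475 CPM, a ratio of 0.836. Its single-cell medians were 1057 CPM in KO and 2820 CPM in WT, and the ranges of 150 to 2284 CPM and 0 to 5707 CPM overlapped. The lowest KO values of Glul, 150 and 205 CPM, belonged to the 2 cells without S100b and Pdgfra. The 12 Müller markers, Glul and Apoe included, summed to 24094 CPM in treated, 17062 in KO and 21884 in WT members. Apoe had 1.27, 0.754 and 0.989 times its Müller level in treated, KO and WT members, so this sum does not measure carried Müller RNA. Rlbp1 had 0.263, 0.131 and 0.300 times its Müller level in these members. Kcnj10 and Car14 were also lowest in KO by this measure, while Crym and Abca8a were highest there. Whether carried Müller RNA adds to the ratios of Glul, Htra1, Neat1 and Hes1 between libraries was not tested. Apoe, Aldoc and Slc1a3 had ratios of 0.901, 1.02 and 1.16. Oxidative phosphorylation genes were higher in 13 of 18 with a median of 0.15 and none passed, immediate-early genes in 6 of 14 with a median of −0.04, and integrated stress response genes in 2 of 6 with a median of −0.11. Of the ischaemic reactive list only 2 of 12 genes were measured, and none passed. Of the intermediate filaments Vim and Nes were measured, and Nes passed upward at 68.7 CPM in KO and 22.9 CPM in WT members.

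Treated astrocytes were compared with KO astrocytes, again with 1 library on each side, so an effect of F4L5.13 is not isolated. In treated members 16 of 2716 genes (0.589%) were higher and 37 (1.36%) lower by the ratio rule. The median log2 ratio over 6815 measured genes was −0.06, and 46.1% lay above 1, with 0.235% past the rule upward and 0.543% downward. This comparison shares the KO library with the one above, and its values are given for themselves. With members thinned to 10000 reads, 7 genes were higher and 3 lower.

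Genes of the reactive state were among those lower in treated astrocytes. Serpina3n had 360 CPM in treated and 1136 CPM in KO members, a ratio of 0.317 (0.265 to 0.378), with single-cell medians of 129 and 878 CPM. Serping1 had 47.5 CPM in treated and 155 CPM in KO members, a ratio of 0.307 (0.181 to 0.499), and no longer passed with fewer than 2 Müller genes per member, without mixed cells or thinned to 10000 reads. C4b had 435 CPM in treated and 881 CPM in KO members, a ratio of 0.494 (0.416 to 0.586). Lcn2 had 11.5 CPM in treated and 120 CPM in KO members, a ratio of 0.0966 (0.0317 to 0.233). None of the 9 measured pan-reactive genes was higher in treated members, with a median of −1.25, and Serpina3n, Lcn2 and Hspb1 passed.

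The 12 lowest ratios of treated to KO included a matrix protein, a growth factor and a kinase. Fmod had 115 CPM in treated and 427 CPM in KO members, a ratio of 0.269 (0.195 to 0.365). Fgf2, a growth factor that injured glia raise, had 34.6 CPM in treated and 133 CPM in KO members, a ratio of 0.261 (0.141 to 0.457). Dclk1, a doublecortin-like kinase, had 153 CPM in treated and 558 CPM in KO members, a ratio of 0.275 (0.209 to 0.359). Others were Slc7a7, an amino acid carrier, Camk1, Fndc5, Il17rb, Plxdc2 and Padi2, an enzyme that converts arginine to citrulline. Of the 12, Serpina3n, Fmod and Dclk1 kept their calls under every alternative.

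Vegfa and Glul were higher in treated than in KO astrocytes. Vegfa had 463 CPM in treated and 159 CPM in KO members, a ratio of 2.91 (2.23 to 3.85), with single-cell medians of 392 and 42.8 CPM, and reads in 95.2% and 65.2% of cells. In Müller cells Vegfa had 217 CPM in treated and 411 CPM in KO, a ratio of 0.528. Glul had 2626 CPM in treated and 1124 CPM in KO members, a ratio of 2.34 (2.11 to 2.59), against a Müller ratio of 0.987. The cell ranges overlapped for both genes.

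Hopx, an atypical homeodomain co-factor, had 941 CPM in treated and 265 CPM in KO members, a ratio of 3.56 (2.91 to 4.38), and 388 CPM in WT members. Its Müller ratio of treated over KO was 4.52. Plac9a had 643 CPM in treated and 203 CPM in KO members, a ratio of 3.17 (2.51 to 4.04). Sparcl1, a matrix protein of astrocytes that promotes synapses, had 234 CPM in treated and 80.2 CPM in KO members, a ratio of 2.91 (1.99 to 4.34). Hes1, a Notch effector, had 312 CPM in treated and 134 CPM in KO members, a ratio of 2.33 (1.72 to 3.18). The rest were Igfbp3, Htra1, Rasd1, Cd302, Slc12a7 and Neat1, and of all 12 only Vegfa, Glul, Hopx and Plac9a kept their calls under every alternative. Lrp5 had 30.6 CPM in treated and 11.6 CPM in KO members, a ratio of 2.64 (0.928 to 8.87) that did not pass.

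Of 16 measured hypoxia genes, 7 were higher in treated than in KO members, with a median of −0.03, and Vegfa passed upward and Ndufa4l2 downward. Interferon genes were higher in 4 of 12 with a median of −0.31, and STAT3 pathway genes in 3 of 10 with a median of −0.55. Norrin and Wnt receptor genes were higher in 7 of 9 with a median of 0.39. Immediate-early genes were higher in 13 of 15 with a median of 0.39, and none of these 4 lists had a gene past the rule. Oxidative phosphorylation genes were higher in 2 of 18, with a median of −0.16.

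Treated astrocytes were also set against WT astrocytes. Of 3484 genes, 17 (0.488%) were higher and 19 (0.545%) lower in treated members, with a median log2 ratio of −0.09. Of 7666 measured genes, 41.2% lay above a ratio of 1 and 58.8% below it, and 0.222% passed upward and 0.248% downward. C4b had 435 CPM in treated and 138 CPM in WT members, and Serpina3n 360 CPM in treated and 57.8 CPM in WT members. Ifitm3 had 973 CPM in treated and 362 CPM in WT members, a ratio of 2.69 (2.31 to 3.14), and Nes, nestin, 65.2 and 22.9 CPM. S100a4 and Arid5a were the other named genes above WT. Of 8 measured pan-reactive genes, 6 were higher in treated than in WT members, with a median of 0.37, and Serpina3n passed. Interferon genes were higher in 9 of 12 with a median of 0.46, and Ifit1 and Ifitm3 passed.

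Vegfa stood at 463 CPM in treated and 498 CPM in WT members, a ratio of 0.930 (0.782 to 1.10), and Glul at 2626 and 3174 CPM, a ratio of 0.827 (0.772 to 0.887). Angpt4 had 96.4 CPM in treated and 263 CPM in WT members, a ratio of 0.367 (0.259 to 0.510). Cyp26b1, which degrades retinoic acid, had 4.75 CPM in treated and 62.3 CPM in WT members, and Gnb4, Ablim3 and Gpr179 were the other named genes below WT. Gpr179 belongs to ON bipolar cells and was read in 83.7% to 86.5% of bipolar cells. Immediate-early genes were higher in 15 of 15 with a median of 0.31, and Atf3 passed. Hypoxia genes were higher in 3 of 19 with a median of −0.26.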

How the data were processed

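The deposited values are estimated counts of reads per gene and barcode, 1 table per library, as the authors supplied them; 2.33% to 2.39% of nonzero values were not whole (more than 0.001 from a whole number), and all were rounded before use. Partek 9.0 and mm10 are named in the submitters' processing notes; the sources used here do not state the quantifier, its settings or any collapse of molecular identifiers. In rare genes only 50.1% to 55.2% of small nonzero values were 1, so the values were taken as reads not collapsed to molecules, and intervals and minimums use reads divided by the ratio of summed squares to sums of values up to 10 in genes seen in 5 to 50 barcodes. CPM is reads of a gene per 1000000 reads, both summed over cells of a library. Intervals are 95% exact binomial, Poisson and conditional binomial intervals. Near-identical gene copies such as Gapdh, Pgk1 and Pgam1 could lose reads in counting and are not singled out.

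The members and the gene lists were chosen with earlier results of these data known. Named genes are the 12 highest and 12 lowest ratios past the rule (5 and 5 for treated against WT, 20 and 8 against Müller cells) with reads in at least 25% of the cells of the higher library and no cell with over 25% of its reads, leaving out the rule's genes, mitochondrial, ribosomal protein, haemoglobin, photoreceptor, crystallin, X-inactivation and Y-linked genes and unnamed models; list genes and markers may be named too. Some genes that the rule names are not reported here. Bipolar cells had 3 or more of 8 markers at 3 or more reads and fewer than 4 Müller genes. No column of unmapped values was used. Alternatives were other membership limits, depth and cell filters, scaling, weighting, rounding and division of reads; thinning to 10000 reads and leaving out the 2 KO cells without S100b and Pdgfra were added after seeing the data. Python 3.11.15, numpy 2.4.6, scipy 1.17.1, pandas 2.3.3 and matplotlib 3.10.9 were used.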

Additional observations from a re-analysis of the deposited data

Results flagged for a closer look

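In KO against WT, 2 genes within the cell limits for named genes passed the ratio rule in opposite directions in astrocytes and Müller cells. Of all measured genes, 69 of 7764 passed upward and 54 downward in astrocytes, and 432 and 385 of 18140 in Müller cells. Vegfa had a ratio of 0.319 in astrocytes (159 CPM in KO and 498 CPM in WT) and 2.83 in Müller cells (411 CPM in KO and 146 CPM in WT). Pdlim3, an actin-binding protein, had a ratio of 0.436 in astrocytes (401 CPM in KO and 919 CPM in WT) and 2.63 in Müller cells (601 CPM in KO and 229 CPM in WT). With 1 library per group the difference between the glial classes was not tested. A single KO cell held 30.6% of the KO astrocytes' Pdlim3 reads, and a single KO cell held 25.7% of their Vegfa reads. Cartpt, chosen here after its values were seen, also passed in opposite directions, but 1 WT cell held 96.7% of its reads.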

How the results depend on the processing

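No paired analysis was possible because each group has 1 library, and the groups share only the replicate number 1. No result that passed the rule reversed in any alternative run. Each main value, including member shares and marker detection, was checked once in each alternative run that applied to it. Of these checks, 225 stayed within the value's interval or within 1.5 times its count, and 41 did not. Keeping members with fewer than 2 Müller genes gave shares of 0.0897%, 0.127% and 0.362% and 0.566, 0.834 and 1.18 members per 100 Müller cells in treated, KO and WT, 84 genes higher and 301 lower than in Müller cells, 38 higher and 34 lower in KO against WT with a pan-reactive median of 0.80, 15 lower in treated against KO, and 11 higher and 6 lower in treated against WT. Barcodes with at least 5000 reads gave shares of 0.380% in treated and 0.376% in KO. Without mixed barcodes the shares were 0.146% in treated, 0.176% in KO and 0.493% in WT, with 0.920, 1.16 and 1.60 members per 100 Müller cells; 174 genes were higher and 522 lower than in Müller cells, 66 and 44 in KO against WT, 15 and 30 in treated against KO, and 20 and 7 in treated against WT. Equal weight per cell gave 28 genes higher in treated against KO. Reads not divided gave 235 higher and 268 lower in KO against WT, 153 and 226 in treated against KO, and 120 and 210 in treated against WT. A minimum of 10 molecule equivalents gave 31 higher and 61 lower in treated against KO and 29 and 36 in treated against WT. Thinning to 10000 reads, which by construction leaves fewer reads per gene, gave 20 higher and 10 lower in KO against WT with an interferon median of 1.49, 7 and 3 in treated against KO, and 5 and 2 in treated against WT. Thinning to 5000 reads gave Gja1 in 47.6%, 30.4% and 44.2% of treated, KO and WT members.

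Of the 12 genes named higher and the 12 named lower in KO against WT, 6 and 1 kept their call under every alternative run: C4b, Fmod, Mt2, Serpina3n, Serpinf1, Trf and Plac9a. For treated against KO, 4 and 3 of 12 did, and for treated against WT, 1 and 0 of 5. The most calls in KO against WT were lost by thinning to 10000 reads (17 of the 24), keeping fewer than 2 Müller genes (16), leaving out the deepest 10% of members (10) and leaving out mixed barcodes (7). Without the 2 KO cells that lacked S100b and Pdgfra no call of a named gene was lost. The cause of the other shifts was not tested.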

Other observations

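Glycam1, a mucin-like ligand of L-selectin, had the KO to WT ratio furthest from 1 among the 20 genes named as higher in astrocytes than in Müller cells. It had 479 CPM in treated, 617 in KO and 62.3 CPM in WT members, a KO to WT ratio of 9.91 (7.24 to 13.9) and a treated to WT ratio of 7.70 (5.58 to 10.8). It was read in 66.7% of treated, 73.9% of KO and 25.6% of WT members, with single-cell medians of 75.1, 242 and 0 CPM. A single cell held 40.8% of its reads in treated, 25.9% in KO and 38.4% in WT, so it was outside the rule for named genes in these comparisons.

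Igfbp3, which binds insulin-like growth factors, had 68.6 CPM in treated, 3.09 in KO and 80.2 CPM in WT members. Its KO to WT ratio was 0.0385 (0.00252 to 0.175), with 1 WT cell holding 28.6% of the reads there, and the KO value rests on 2 cells. Müller cells had at most 1.64 CPM of Igfbp3. Igfbp5, picked out after its values were seen, had 2193 CPM in treated, 3109 in KO and 2414 CPM in WT members, against 20.1, 86.5 and 41.5 CPM in Müller cells.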
